A study of Homo sapiens with 4 samples.

Results

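The G1 cyclin, CDK and inhibitor genes comprised 9 genes chosen by name, CCND1, CCND3, CDK4, CDK2, CCNE1, CCNE2, CDKN1B, CDKN2C and CDKN2D. Their open chromatin was followed in Kasumi-1 cells through every row of the deposited table that annotates its peaks, called the annotated table, whose annotated gene was one of them. Rows of the authors' other deposited table, called the replicate 2 table, that overlapped such a peak by at least 1 bp were added. This gave 13 of the 20556 peaks of the annotated table, at 8 of the 9 genes, and 9 of the 13577 peaks of the replicate 2 table. Of the 13 peaks, 8 fell in the promoter class of the annotation, which reaches 3 kb from a start site, and these 8 belonged to 7 genes. All 8 promoter peaks and 1 distal peak of CCNE1 overlapped a peak of the replicate 2 table. The distal peaks of CCND1 and CDKN2C and both intronic peaks of CCND3 did not. No row carried CCNE2 as its gene.

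The members act at the passage from G1 into S phase. D-type cyclins, made in response to growth signals, activate CDK4 and CDK6, which begin to phosphorylate the retinoblastoma protein and so release E2F transcription factors. Cyclin E, itself an E2F target, then activates CDK2 and completes the step. Inhibitors of the INK4 family, which include the products of CDKN2C and CDKN2D, block the kinases of the D-type cyclins, and the product of CDKN1B, of the CIP/KIP family, binds cyclin E with CDK2. In haematopoietic cells CCND3 is a widely used D-type cyclin, and in t(8;21) leukaemia the RUNX1 fusion protein has been tied to control of cell cycle genes.

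The assay was ATAC-seq, whose transposase inserts sequencing adapters into open chromatin. Kasumi-1 is an acute myeloid leukaemia cell line with the t(8;21) translocation. The SETD8 knockout group held 2 libraries of cells edited with CRISPR/Cas9 and a guide labelled sgSETD8. The sgNT control group held 2 libraries of cells with a guide labelled sgNT, whose genotype label is WT. SETD8, now KMT5A, encodes the enzyme that monomethylates lysine on histone H4 and whose protein level varies through the cell cycle. Neither the time after editing, nor whether the edited cells were a clone or a pool, nor whether separate cultures gave the 2 libraries of a group is stated in the labels. The annotated table names no library. Its direction, given here as knockout against control, was inferred from its name, which sets treated against control, and whether it includes the libraries of replicate 2 is not known. The replicate 2 table compares a knockout and a control library, called replicate 2 here. Its column names were matched here to the titles sgSETD8#2 and sgNT#2, a match that is inferred and not stated. Whether #2 marks a replicate or another guide is not stated in the titles. Every comparison within the replicate 2 table therefore rested on 1 library per group, without a replicate check. The annotated table has 2 further numbered columns, whose content no label gives and which were not used. Whether its values rest on replicates is therefore not known either.

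The knockout library of the replicate 2 table had about 2091370 reads in peaks and its control library about 5346466. The median level over its peaks was 125 normalised reads in the knockout library and 296 in the control library. In these normalised reads 1 read counted as 1.0 in the knockout library and as 0.918 in the control library, so that the unequal number of reads in peaks remains in the log2 changes. The log2 ratio of the summed normalised reads, knockout over control, was -1.23, and its part in the shift shared by all peaks was not tested. The log2 fold change of the median peak, knockout against control, was -0.87 in the authors' deposited annotated table, and it was -1.23 in the authors' deposited replicate 2 table, so that a member is also given by its distance from that median. No peak of either of the authors' deposited tables passed an adjusted p of 0.05, while 329 peaks of the annotated table (1.6%) and 19 of the replicate 2 table (0.14%) had an unadjusted p below it, and 0 of these were member peaks. The promoter of KMT5A itself had log2 changes of -0.82 and -1.45 in the authors' deposited tables, with 251 normalised reads in the replicate 2 knockout library and 685 in its control library, and an edit of coding sequence need not change it. Of 10 myeloid progenitor markers, 7 had a promoter peak in the annotated table and 6 had one in the replicate 2 table, against 2 and 0 of 5 T cell markers. Of 5 B cell markers, 3 and 1 had such a peak, as did 2 and 1 of 5 erythroid and 1 and 0 of 4 epithelial markers.

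The RefSeq promoter table for GRCh38.p14 held 10 windows of 300 bases for 6 of the 9 members, each from 250 bases before a start site to 50 after it. CCND1, CDK2 and CCNE2 were not among them. Of these windows, 6 overlapped a peak of the annotated table assigned to the member itself (287 of 300 bases at CCNE1, all 300 at the others), 1 each at CCND3, CDK4, CCNE1, CDKN1B, CDKN2C and CDKN2D. The 4 printed here stand for a cyclin, a kinase and the 2 inhibitor families. The promoter values given below belong to the whole peaks that these windows overlap, not to the windows. Capitals mark every match on either strand to the motifs searched.
CCNE1, chr19:29811741-29812040, plus strand: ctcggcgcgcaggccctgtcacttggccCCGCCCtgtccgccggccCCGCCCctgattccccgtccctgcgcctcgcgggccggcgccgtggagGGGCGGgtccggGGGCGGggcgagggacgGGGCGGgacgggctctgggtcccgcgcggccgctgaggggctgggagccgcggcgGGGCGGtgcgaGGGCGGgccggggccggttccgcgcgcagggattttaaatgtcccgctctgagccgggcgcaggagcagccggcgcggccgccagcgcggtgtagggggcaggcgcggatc
CDK4, chr12:57752261-57752560, minus strand: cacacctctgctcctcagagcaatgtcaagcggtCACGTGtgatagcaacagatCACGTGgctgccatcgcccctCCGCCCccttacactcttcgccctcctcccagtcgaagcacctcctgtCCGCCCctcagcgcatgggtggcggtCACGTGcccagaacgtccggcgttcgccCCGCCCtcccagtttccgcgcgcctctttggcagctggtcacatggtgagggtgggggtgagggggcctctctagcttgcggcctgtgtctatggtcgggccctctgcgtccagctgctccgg
CDKN1B, chr12:12717118-12717417, plus strand: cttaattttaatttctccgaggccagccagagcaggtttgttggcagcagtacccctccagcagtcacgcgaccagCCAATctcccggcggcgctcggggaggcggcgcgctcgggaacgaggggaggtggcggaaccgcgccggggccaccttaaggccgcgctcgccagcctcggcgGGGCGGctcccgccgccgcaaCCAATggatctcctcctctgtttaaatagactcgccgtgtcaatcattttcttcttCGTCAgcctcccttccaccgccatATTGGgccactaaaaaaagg
CDKN2C, chr1:50968456-50968755, plus strand: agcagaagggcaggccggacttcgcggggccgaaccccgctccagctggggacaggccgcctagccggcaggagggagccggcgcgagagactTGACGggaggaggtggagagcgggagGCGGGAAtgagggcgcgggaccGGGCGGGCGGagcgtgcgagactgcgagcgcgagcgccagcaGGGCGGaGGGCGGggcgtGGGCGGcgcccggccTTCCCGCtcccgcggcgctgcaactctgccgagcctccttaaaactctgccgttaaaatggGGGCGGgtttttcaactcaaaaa

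The motifs were the SP and KLF box GGGCGG, the NFY box CCAAT, the E2F letters TTCGCGC with the variants TTGGCGC and TTCCCGC, the short site TGACG of CREB and ATF factors, the ETS core CCGGAA, the RUNX letters TGTGGT with the variant TGCGGT, and the E-box CACGTG, known as a site of MYC and MAX. The E-box was added after the CDK4 sequence had been seen. The 6 windows were kept because they overlap a peak, whereas the 35116 windows of all genes were taken whether open or not. The shares and base composition below are therefore not compared like with like. GGGCGG was present in 6 of the 6 windows, against 45.0% of the 35116 windows of all genes, and CCNE1 had the most matches, 7. CCAAT was present in 3 of 6 (CCND3, CDKN1B and CDKN2D), against 34.6% of all windows, and CDKN1B held 3 matches. The E2F letters were present at CDKN2C alone among the 6, with 2 matches, at -131 and -34 from the start site, against 11% of all windows. Elsewhere, CCNE1 included, their absence says only that these exact letters are missing, since other forms of an E2F site were not searched. CDK4 alone held an E-box, with 3 matches at -216, -196 and -101, against 7.26% of all windows. TGACG was found at CDKN1B and CDKN2C (24.6% of all windows) and CCGGAA at CCND3 (17.2%). The RUNX letters were in 0 of the 6 windows, against 19.6% of all, which says only that these letters are not in them. Adjacent matches overlap in the GGGCGGGCGG run of CDKN2C. The share of G and C ranged from 62.3% at CDKN1B to 81.0% at CCNE1, against a median of 58.7% over all windows (quartiles 47.0% and 68.0%), and the windows held 23 to 47 CG dinucleotides against a median of 14.

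The D-type cyclin genes differed in where the annotated table had their peaks. CCND1, the cyclin D1 gene, spans positions 69641156 to 69654474 of chromosome 11 and had no promoter peak in the annotated table. Its one row was a distal peak at 69575983 to 69576502, at -64585 bp from the start site, with a mean level of 88.0 normalised reads. That peak had a log2 change of -0.21 in the authors' deposited annotated table (adjusted p = 0.891), 0.66 above the median of all peaks and the highest value among the 13 member peaks. The gene named for a distal peak is the nearest one, and its target was not measured. A peak of the replicate 2 table lay inside CCND1, at 69643222 to 69643809 and 2066 bp past the gene's start, and overlapped no peak of the annotated table. It held 79.9 normalised reads in the knockout library, against 160.0 in the control library, with a log2 change of -1.0 in the authors' deposited replicate 2 table.

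CCND3, the cyclin D3 gene, spans 41934933 to 42050035 of chromosome 6 and was the member with the most peaks, 4. A promoter peak at 41941405 to 41942159 covered an annotated start site, and a peak at 41936036 to 41936559 lay 1707 bp from the start of a shorter transcript. Both had a log2 change of -0.78 in the authors' deposited annotated table (adjusted p = 0.732 for each), 0.09 above its median. Their values differed in the replicate 2 table. The peak over the start site held 221 normalised reads in the knockout library and 452 in the control library, a log2 change of -1.03 in the authors' deposited replicate 2 table (95% counting interval -1.27 to -0.80). The peak further into the gene held 109 normalised reads in the knockout library and 329 in the control library, a log2 change of -1.59 in the authors' deposited replicate 2 table (-1.91 to -1.28). The 2 intervals did not overlap, and they cover counting error only. The peak further into the gene had the lowest fold change of the 9 member peaks in the authors' deposited replicate 2 table, at percentile 12.6 of all its peaks, while in the annotated table it stood at percentile 56.8.

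Both intronic peaks of CCND3 were low in the annotated table. The one at 42028175 to 42028906 had a log2 change of -1.81 in the authors' deposited annotated table (p = 0.0998, adjusted p = 0.731), the lowest of the 13 member peaks, at percentile 2.55 of all peaks. Its mean level was 168 normalised reads. The other, at 42017039 to 42017587, had -1.25 in the authors' deposited annotated table at a mean level of 101 normalised reads (adjusted p = 0.731). The other 96 peaks of the same 5 Mb had a median log2 change of -0.82, so that these intronic peaks lay 0.99 and 0.43 below it while both CCND3 promoter peaks lay 0.06 above theirs. The upstream start site of CCND3 lay in a peak of the replicate 2 table and in none of the annotated table. That peak, at 42048309 to 42048995, covered all 300 bases of the RefSeq window there. It held 86.2 normalised reads in the knockout library and 182 in the control library, with a log2 change of -1.08 in the authors' deposited replicate 2 table. A further peak inside the gene, at 42044098 to 42044510, held 76.1 normalised reads in the knockout library and 163 in the control library. It had -1.10 in the authors' deposited replicate 2 table (-1.51 to -0.71). Neither of these peaks overlapped a peak of the annotated table, so neither enters a count of promoter peaks.

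**Figure D1:**
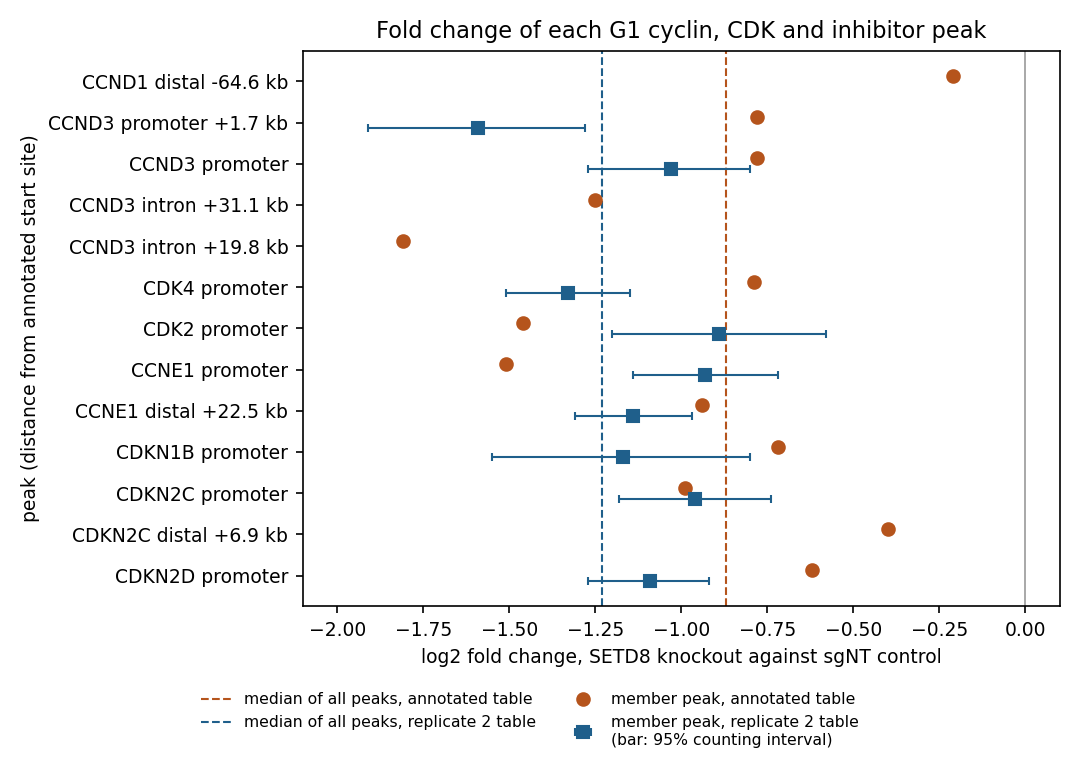
Log2 fold change, SETD8 knockout against sgNT control, of each of the 13 member peaks in the annotated table (circles) and of the 9 that overlapped a peak of the replicate 2 table (squares, with 95% counting intervals). Dashed lines give the median of all peaks of each table, -0.87 and -1.23. All values lie below 0, and the CCNE1 and CDK2 promoters lie left of the line in the annotated table and right of it in the other.

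CDK4, the kinase partner of the D-type cyclins, spans 57747727 to 57752310 of chromosome 12 and had the strongest member peak of the annotated table. Its promoter peak at 57752073 to 57752777 had a mean level of 1090.0 normalised reads in the annotated table, at percentile 98.9 of all peaks, and contains the E-box window printed above. The log2 change was -0.79 in the authors' deposited annotated table (adjusted p = 0.731), 0.08 above the median. In the replicate 2 table the peak held 345 normalised reads in the knockout library and 867 in the control library. That is a log2 change of -1.33 in the authors' deposited replicate 2 table (95% counting interval -1.51 to -1.15, adjusted p = 0.578), 0.10 below the median, which the interval includes. CDK4 lies among other open promoters: within 100 kb, 6 promoter peaks of other genes ranged from -1.40 to -0.66 in the authors' deposited annotated table and 6 from -1.39 to -0.66 in the authors' deposited replicate 2 table. The CDK4 promoter stood inside both ranges.

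CCNE1, the cyclin E1 gene, and CDK2, its kinase partner, had the lowest promoter values of the members in the annotated table, and the highest in the replicate 2 table. CCNE1 spans 29811991 to 29824312 of chromosome 19, and its promoter peak at 29811447 to 29812027 had a mean level of 108 normalised reads. The log2 change was -1.51 in the authors' deposited annotated table (p = 0.14, adjusted p = 0.731), at percentile 7.10 of all promoter peaks. CDK2 spans 55966830 to 55972789 of chromosome 12, and its promoter peak at 55966093 to 55967130 had a mean level of 176 normalised reads. Its log2 change was -1.46 in the authors' deposited annotated table (p = 0.182, adjusted p = 0.731), at percentile 8.85 of promoter peaks. Relative to the median of all peaks these promoters lay at -0.64 and -0.59. Within 100 kb of CDK2 there were 4 promoter peaks of other genes, from -1.15 to -0.57 in the authors' deposited annotated table, and none was as low as CDK2.

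The replicate 2 table placed both promoters on the other side of its median. The CCNE1 promoter peak held 282 normalised reads in the knockout library and 537 in the control library, a log2 change of -0.93 in the authors' deposited replicate 2 table (95% counting interval -1.14 to -0.72, adjusted p = 0.584). The CDK2 promoter peak held 132 normalised reads in the knockout library and 244 in the control library, a log2 change of -0.89 in the authors' deposited replicate 2 table (-1.20 to -0.58, adjusted p = 0.586). These values lay 0.30 and 0.34 above the median of all peaks, at percentiles 87.3 and 89.7 of promoter peaks, and both counting intervals lay above the median of -1.23. Of the 3 promoter peaks of other genes within 100 kb of CDK2, from -1.63 to -1.01 in the authors' deposited replicate 2 table, all were lower than CDK2. Between tables the centred value differed by 0.94 at CCNE1 and 0.93 at CDK2, and at the other joined member peaks by between -0.45 (CCND3, 1707 bp from the start) and 0.39 (CDKN2C). The peaks compared were not identical: the 2 CDK2 peaks shared 590 bp, or 56.8% of the annotated-table peak and 69.9% of the replicate 2 peak. The CCNE1 peak of the replicate 2 table was 900 bp wide, against 581 bp for the other, and contained it whole. Their rank by level differed too. The CCNE1 promoter stood at level percentile 38.9 of all peaks in the annotated table and 84.2 in the replicate 2 table. The CDK2 promoter stood at 58.7 and 43.9. The part of boundaries or level in the difference was not tested.

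Downstream of CCNE1 lay a stronger peak than its promoter. The distal peak at 29844267 to 29845822, at 22535 bp from the nearest annotated start site, had a mean level of 584 normalised reads, at percentile 93.7 of all peaks. Its log2 change was -0.94 in the authors' deposited annotated table (adjusted p = 0.731), 0.07 below the median. Its overlapping peak held 383 normalised reads in the knockout library and 843 in the control library, with a log2 change of -1.14 in the authors' deposited replicate 2 table (95% counting interval -1.31 to -0.97). Relative to the median of all peaks it stood at -0.07 and 0.09, against -0.64 and 0.30 for the promoter.

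CCNE2, the cyclin E2 gene, spans 94880224 to 94896693 of chromosome 8 and had no row under its own name. A peak at 94895062 to 94896561, assigned to NDUFAF6, lay wholly inside the CCNE2 span and ended 132 bp before its upper end. Its log2 change was -0.72 in the authors' deposited annotated table (adjusted p = 0.732), 0.15 above the median. The overlapping peak of the replicate 2 table held 416 normalised reads in the knockout library and 787 in the control library, with a log2 change of -0.92 in the authors' deposited replicate 2 table (95% counting interval -1.09 to -0.75). These values cannot be assigned to CCNE2 rather than NDUFAF6, and they enter no count of members.

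The inhibitor genes had promoter values near or above the median in both tables. CDKN1B, which encodes the CIP/KIP inhibitor of cyclin E with CDK2, spans 12717368 to 12722369 of chromosome 12. Its promoter peak at 12716752 to 12717685 had a mean level of 170.0 normalised reads and a log2 change of -0.72 in the authors' deposited annotated table (adjusted p = 0.732), 0.15 above the median. The overlapping peak held 85.0 normalised reads in the knockout library and 191 in the control library, the lowest levels of the 9 peaks, with a log2 change of -1.17 in the authors' deposited replicate 2 table. Its counting interval, -1.55 to -0.80, was the widest of the 9 and includes the median.

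CDKN2C and CDKN2D encode INK4 inhibitors of the kinases that bind D-type cyclins. CDKN2C spans 50960745 to 50974634 of chromosome 1, and its promoter peak at 50968094 to 50969027, which contains the window with the E2F letters, had a mean level of 372 normalised reads. The log2 change was -0.99 in the authors' deposited annotated table (adjusted p = 0.731). The overlapping peak of the replicate 2 table held 249 normalised reads in the knockout library and 484 in the control library, with a log2 change of -0.96 in the authors' deposited replicate 2 table (95% counting interval -1.18 to -0.74, adjusted p = 0.58). Of the 9 joined peaks it had the closest pair of deposited values, but it lay 0.12 below the median of the annotated table and 0.27 above that of the replicate 2 table. A distal peak at 50977132 to 50978330, at 6887 bp from a start site, had a log2 change of -0.40 in the authors' deposited annotated table at a mean level of 149 normalised reads (adjusted p = 0.813).

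CDKN2D spans 10566460 to 10568979 of chromosome 19, and its promoter peak at 10568669 to 10569395 was the second strongest member promoter of the annotated table, with a mean level of 662 normalised reads. The log2 change was -0.62 in the authors' deposited annotated table (adjusted p = 0.741), the highest of the 8 member promoter peaks and 0.25 above the median. In the replicate 2 table the peak held 393 normalised reads in the knockout library and 838 in the control library. That is a log2 change of -1.09 in the authors' deposited replicate 2 table (95% counting interval -1.27 to -0.92, adjusted p = 0.578), 0.14 above the median. The other 154 peaks of its 5 Mb stood at a median of -0.66 in the annotated table, and against these CDKN2D stood only 0.04 higher.

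**Figure D2:**
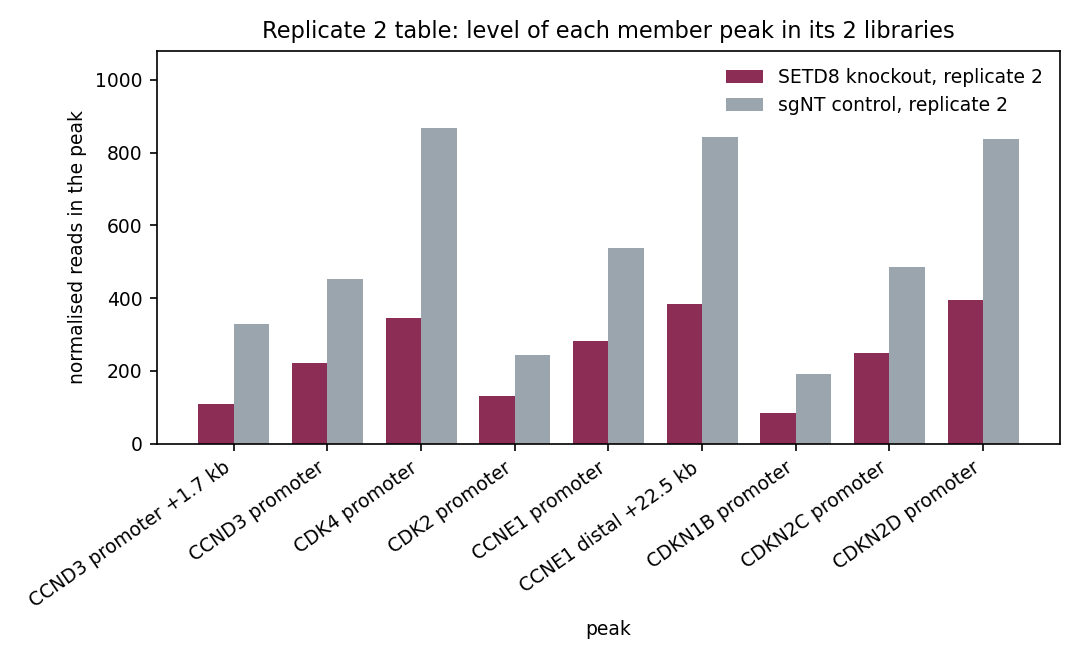
Normalised reads, on a linear axis, of the 9 member peaks of the replicate 2 table in the SETD8 knockout library (left bar of each pair) and the sgNT control library (right bar) of replicate 2. There is 1 library per group, so no error is drawn. The knockout bar is the lower one at all 9 peaks, from 85.0 against 191 at the CDKN1B promoter to 393 against 838 at the CDKN2D promoter.

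As a set, the members' promoters all had values below 0, as most promoter peaks did, with medians slightly above those of all promoter peaks. Lower by at least 1 on the log2 scale, that is 2-fold, were 2 of the 8 member promoter peaks in the authors' deposited annotated table (CCNE1 and CDK2), where 42% of all 11787 promoter peaks were. By the authors' deposited replicate 2 table the same held for 5 of 8 (CDK4, CDKN1B, CDKN2D and both CCND3 peaks), where 82.8% of all 9043 promoter peaks were. No member promoter was higher by at least 1, against 0.0594% and 0% of promoter peaks. Taking the strongest promoter peak of each of the 7 genes, the median fold change was -0.79 (annotated table) and -1.03 (replicate 2 table), beside -0.92 (quartiles -1.18 and -0.64) and -1.26 (-1.44 and -1.07) over all promoter peaks. Of the 8 joined promoter peaks, 5 lay above the median of all peaks in the annotated table and 6 in the replicate 2 table, where 44.9% and 45.8% of all promoter peaks did. Above the median in both tables were 3 of the 8, the proximal CCND3 peak, CDKN1B and CDKN2D, as were 21.5% of all joined promoter peaks. Below it in the annotated table and above it in the replicate 2 table were also 3 of the 8, CCNE1, CDK2 and CDKN2C, as were 23.9% of all joined promoter peaks. At 1.5-fold all 7 genes with a promoter peak were lower in both tables, as were 79.1% and 98.3% of all promoter peaks. With the table median subtracted none of the 7 was lower by 1, against 1.59% and 0.0885% of all promoter peaks. No test was made of these counts, since the genes are not replicates of a condition.

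**Figure D3:**
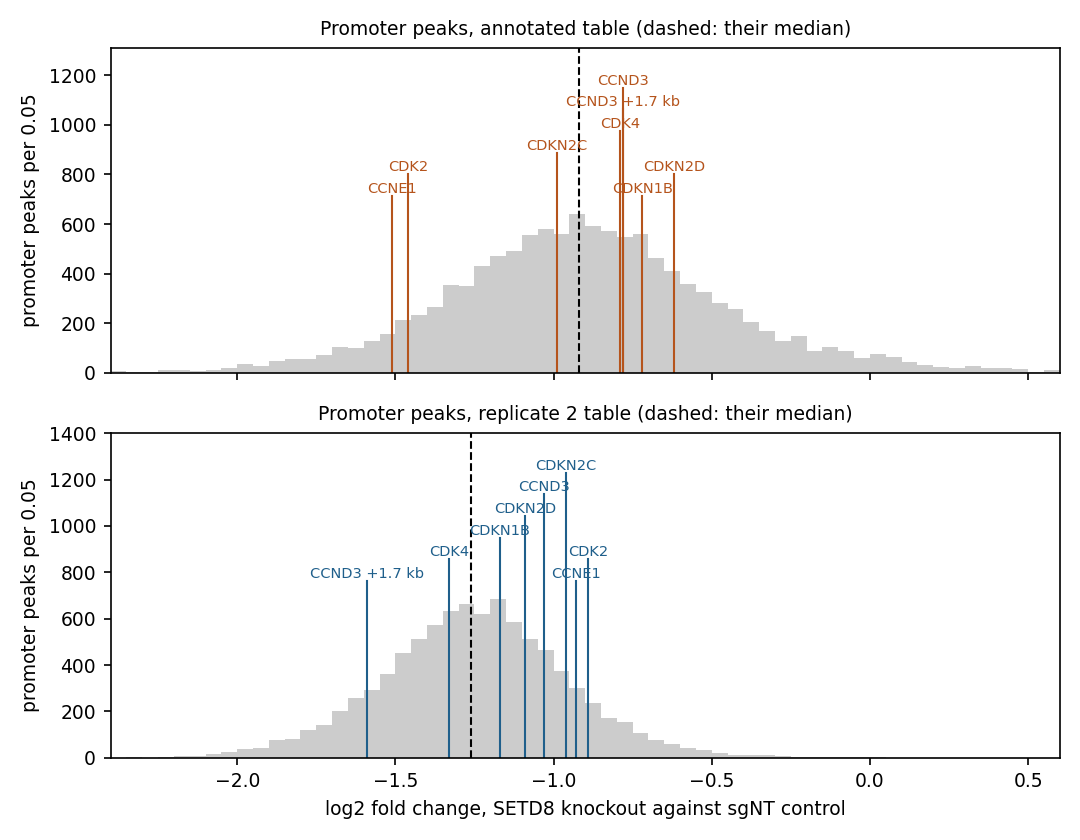
Distribution of the log2 fold change, SETD8 knockout against sgNT control, over all promoter peaks of the annotated table (upper panel, n = 11787) and the replicate 2 table (lower panel, n = 9043), in steps of 0.05. Vertical lines mark the 8 member promoter peaks and the dashed line the median of all promoter peaks. CCNE1 and CDK2 stand in the lower tail above and in the upper part below, and the CCND3 peak 1707 bp from its start site stands lowest in the lower panel.

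The members were also read against peaks of like strength and of the same chromosome region. After the median of peaks of like level was subtracted, the 8 promoter peaks ranged from -0.68 (CCNE1) to 0.30 (CDKN2D) in the annotated table and from -0.34 (CCND3, 1707 bp from the start) to 0.38 (CDK2) in the other. After the regional median over 5 Mb was subtracted, the ranges were -0.79 to 0.12 and -0.46 to 0.41, with the same peaks at the low ends. CDK2 and CDK4 lie in the same 5 Mb of chromosome 12, where the median over other peaks was -0.91 in the annotated table, and yet CDK2 stood at -0.55 and CDK4 at 0.12 relative to it. In the replicate 2 table CDK2 stood at 0.41 and CDK4 at -0.05 relative to that region. For CCNE1 the region held only 11 other peaks in the annotated table, and 10 in the replicate 2 table, the fewest of any member. CDKN2C turned from 0.01 with the level trend removed to -0.37 with the region removed in the annotated table.

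**Figure D4:**
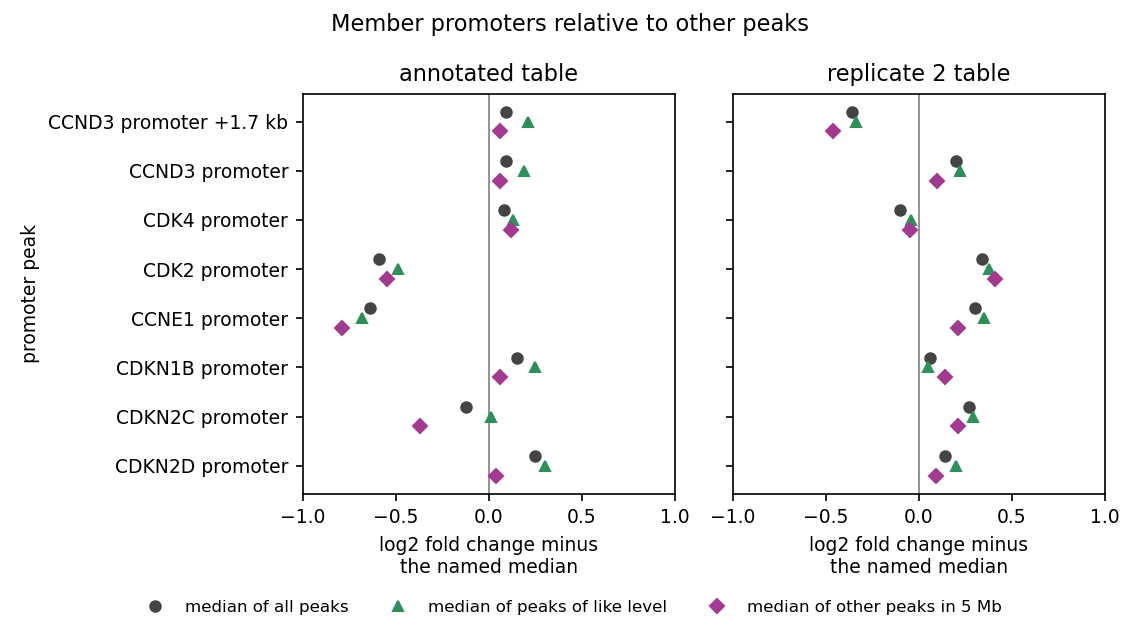
Log2 fold change of the 8 member promoter peaks minus the median of all peaks (circles), of peaks of like level (triangles) or of other peaks within its 5 Mb (diamonds), in the annotated table (left) and the replicate 2 table (right). CCNE1 and CDK2 are below 0 on all 3 scales in the annotated table and above 0 on all 3 in the other, and CCND3 at +1.7 kb shows the opposite order.

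Other genes of G1 and S entry gave the setting for these values. Each gene was counted by its strongest promoter peak, whereas the shares beside the counts are over every promoter peak. Of 30 partner genes, 19 had a promoter peak in the annotated table, with a median log2 change of -0.98, and 9 of them were lower by at least 1 in the authors' deposited annotated table, where 42% of all promoter peaks were. In the replicate 2 table such a peak was found for 18, with a median of -1.25, and 17 were lower by at least 1 in the authors' deposited replicate 2 table, where 82.8% of all promoter peaks were. Of 18 RB and E2F genes, 15 and 12 had a promoter peak, with medians of -0.89 and -1.23, and 5 and 11 were lower by at least 1 in the authors' deposited tables, to be read against the same 42% and 82.8%. None of these genes was higher by at least 1, and none passed an adjusted p of 0.05.

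Close relatives of the members were open unevenly. No row of either table was assigned to CCND2, CDKN1C or CDKN2B, and no peak of either table overlapped the RefSeq span of these genes. CDK6, the second kinase of the D-type cyclins, had 6 peaks in the annotated table and 1 in the replicate 2 table, and the authors' deposited tables gave the peak over its start site -1.08 and -1.04. Its other 5 peaks were spread widely in the authors' deposited annotated table. They stood at -0.05 for a weak peak of the promoter class at -2832 bp from a start site, at -0.02, -0.57 and -1.64 for 3 intronic peaks, and at -1.35 for an exonic peak. The intronic peak at -1.64 had an unadjusted p of 0.0498 and an adjusted p of 0.731 in the authors' deposited table. The strongest promoter peak of CDKN1A, a CIP/KIP inhibitor and target of p53, had -1.01 and -1.26 in the authors' deposited tables, at different peaks of the gene. CDKN2A, the founding INK4 gene, had -0.91 and -1.23 in the authors' deposited tables, and the replicate 2 value rests on 140.0 normalised reads in the knockout library and 329 in the control library.

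Each partner gene was ranked by its strongest promoter peak only, and its other peaks can differ. At FBXO31, named below, the other peaks had -0.11 and -1.13 in the authors' deposited annotated table. They had -1.77 and -0.91 in the authors' deposited replicate 2 table. Among the partners the lowest promoters of the annotated table were those of FBXW7, the substrate adaptor of the ligase that degrades cyclin E, at -1.93, MNAT1, an assembly factor of the CDK-activating kinase, at -1.51, and CKS2, a CDK-binding subunit, at -1.45 in the authors' deposited annotated table. The highest were CACUL1 at -0.49, CCNA2, the cyclin A2 gene, at -0.53 and FBXO31, a ligase adaptor for cyclin D1, at -0.75 in the authors' deposited annotated table. The lowest of the replicate 2 table were CDC6, a replication licensing factor, at -1.88, CKS2 at -1.74 and CKS1B at -1.65 in the authors' deposited replicate 2 table. The highest were SKP1, a core subunit of SCF ligases, at -0.61, FBXO31 at -1.01 and CDK6 at -1.04 in the authors' deposited replicate 2 table. Only CKS2 among the lowest and FBXO31 among the highest kept their place in both tables. SKP1 stood at -1.42, CDC6 at -1.06, CKS1B at -0.85 and CDK6 at -1.08 in the authors' deposited annotated table. FBXW7 stood at -1.22, CCNA2 at -1.47 and CACUL1 at -1.22 in the authors' deposited replicate 2 table, where MNAT1 had no promoter peak.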

How the data were processed

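ATAC-seq libraries of Kasumi-1 cells, 2 SETD8 knockout and 2 sgNT control, were grouped by their sample titles. Per the submitters' processing notes the build was hg38 and the tools were MACS2 2.1.2, Bowtie2, cutadapt, ChIPseeker, SAMtools and deepTools; settings, duplicate removal, transposase shift and library scaling are not stated there. The authors deposited 2 tables with a mean log2 level, a log2 fold change, a p-value and an adjusted p-value per peak. Columns of the annotated table are numbered and were identified by order and range. The direction of its fold change was inferred from the table's name. A further 2 of its columns, whose content no label gives, were not used. Per its file headers, the replicate 2 table also gives the log2 level of each library, matched by inference from column names to replicate 2. Its weak levels, below 5 on the log2 scale, were whole reads in the knockout library (100% of 361 values, within 0.005) and reads times 0.918 in the control library (100% of 170), which gave the exact binomial counting intervals; these cover counting error only. Normalised reads are 2 to the power of the deposited level.

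No test across libraries was run, because counts of all 4 were not used here; the p-values are those of the authors, over all peaks of a table. Peaks of the replicate 2 table took the annotation of the annotated-table peak they overlapped most. Those that overlapped none had no annotation and enter no promoter count, wherever they lay. Level trends used 20 bins of equal size, and regions 5 Mb bins with at least 10 other peaks. The steps were tested on simulated data. The members and lists were chosen with earlier results of these data known. Named were all members, their closest relatives, and per table the 3 partners with the lowest and highest promoter values. Alternatives covered the fold size, centring, level, region, peak choice and overlap. Python 3.11.15, numpy 2.4.6, pandas 2.3.3, scipy 1.17.1 and matplotlib 3.10.9 were used.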

Additional observations from a re-analysis of the deposited data

How the results depend on the processing

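No paired analysis was possible because the columns of the annotated table carry no replicate number and the replicate 2 table has 1 library per group, and for the same reason no library could be left out in turn. The number of the 7 members lower by at least 1 was 2 in the annotated table, and 4 in the replicate 2 table. With 1.5-fold in place of 2-fold it was 7 in both tables, as for 79.1% and 98.3% of all promoter peaks. With fold changes centred on the median of all peaks it was 0 in both. With peaks at or above the median level it was 1 in the annotated table, where CCNE1 is too weak to enter, and 3 in the other. The peak nearest the start site gave the same counts, as did an overlap of at least 50% of both peaks in the replicate 2 table.

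The median promoter fold change of the members, -0.79 and -1.03, became 0.08 and 0.20 after centring, 0.13 and 0.22 with the level trend subtracted, and 0.04 and 0.14 with the regional median subtracted. Over every peak of a member it was -0.79 and -1.09. The sign of these values therefore depends on whether the shift shared by all peaks is kept. Of the 8 promoter peaks, 5 of the annotated table and 6 of the other were above 0 after centring, 6 and 6 with the level trend subtracted, and 5 and 6 with the regional median subtracted. Among the joined member peaks, depth limits the replicate 2 table most at CDKN1B, with 85 knockout reads. Weaker still were peaks inside CCND1 and CCND3 that were not joined, with 79.9 and 76.1 normalised reads in the knockout library. The depth of single libraries of the annotated table was not analysed here.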

Other observations

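The RefSeq table also lists an upstream start site of CDKN2C on chromosome 1, whose window at 50960495 to 50960794 overlapped peaks assigned to FAF1, by 221 of its 300 bases in the annotated table and by all 300 in the replicate 2 table. The FAF1 peak of the replicate 2 table, at 50959801 to 50960809, reached 65 bp into the CDKN2C span. It held 146 normalised reads in the knockout library and 388 in the control library, with a log2 change of -1.41 in the authors' deposited replicate 2 table (95% counting interval -1.69 to -1.14), 0.18 below the median of all peaks. The CDKN2C promoter peak used above stood at -0.96 in the same authors' deposited table, with an interval of -1.18 to -0.74 that overlaps it only between -1.18 and -1.14. The third CDKN2C window, at 50969995 to 50970294, and the third CCND3 window, at 41939156 to 41939455, lay in no peak of either table.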
